A study of Mus musculus and Rattus norvegicus with 26 samples.

Results

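The comparison set cells of brown adipose tissue (BAT) against cardiomyocytes by the intronic sequence that their amplified RNA held. The members were all contigs, that is stretches in which neighbouring, not necessarily overlapping, intronic reads were joined, of the BAT list and of the cardiomyocyte list, 58407 of the 112345 contigs in the 6 lists of the series. The BAT list held 42338 contigs in 30018 introns of 10220 genes, and the cardiomyocyte list 16069 contigs in 13056 introns of 6205 genes. Introns were matched by RefSeq transcript, gene symbol and intron number, and the read count of an intron was taken once and expressed as reads per 1000000 reads of the list's total (RPM). The totals were 17858440 reads for BAT and 12201042 for cardiomyocytes. Introns in both lists had a median of 76 reads in BAT and 64 in cardiomyocytes, against 21 for introns in BAT only and 38 for introns in cardiomyocytes only.

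The BAT cells came from the interscapular depot of CD-1 mouse embryos at embryonic day 17.5. They were freed with collagenase, plated on coverslips, recognised by their morphology and picked mechanically. The cardiomyocytes were taken at embryonic day 14.5 from ventricles of C57BL/6 embryos hemizygous for the Fucci cell cycle reporter mAG-hGem (1/110), a fluorescent protein on a geminin fragment expressed from a CMV promoter. The embryos were F1 offspring of transgenic males and wildtype females, and the cells were flow sorted for fluorescence and viability. Both kinds of cell went through 3 rounds of aRNA amplification, a linear copying that begins from an oligo-dT primer. According to the study, later rounds also involve random primers, which can shorten the copies. The labels name 6 BAT and 9 cardiomyocyte libraries among the 26 of the series, but each cell type has 1 list in which libraries are pooled, and the list does not say which of them, or how many, it holds. No spread between cells can therefore be given and no test was made. Intervals below are exact 95% Clopper-Pearson intervals of the split of reads, and they cover counting error only. Strain, age, tissue and isolation all differ between the cell types and cannot be told apart from cell type. A list names only introns that received contigs, so a gene missing from it is called not listed, and no fold is given against it.

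Brown adipocytes burn lipid for heat: fatty acids freed from droplets are oxidised in mitochondria whose inner membrane is made leaky to protons by UCP1, under a program set by PPAR gamma, PRDM16 and their coactivators. Ventricular cardiomyocytes contract through ordered sarcomeres, are triggered by calcium that enters through L-type channels and is multiplied by the ryanodine receptor, and are joined end to end by intercalated discs. Introns are usually removed in the nucleus and degraded. The intron-containing transcripts recorded here are those in which intronic sequence could still be sequenced. The cells were taken whole, and nuclear RNA awaiting splicing was not separated from cytoplasmic RNA.

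The sequences below show where 6 chosen contigs ended, read from the NCBIM37 (mm9) genome on the strand of the gene. Each stretch has the last 80 bases of the contig followed by the next 80 bases. Contigs of every length in the lists were used, and 5 of these 6 are longer than 400 nt. Fabp4 is shown for fat, Trdn and Nexn for muscle, Ucp1 for an intron that both lists held, and Nkx2-5 as a cardiac gene of the BAT list. In the first 5, capitals mark bases beyond the 3′ end of the annotated intron, where the following exon begins. The end of that exon was not marked, so capitals may run past it.
Fabp4 intron 3, BAT contig: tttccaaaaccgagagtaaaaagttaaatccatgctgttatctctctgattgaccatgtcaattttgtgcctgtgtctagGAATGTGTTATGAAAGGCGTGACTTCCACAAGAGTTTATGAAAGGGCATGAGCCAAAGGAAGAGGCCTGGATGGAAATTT
Ucp1 intron 5, BAT contig: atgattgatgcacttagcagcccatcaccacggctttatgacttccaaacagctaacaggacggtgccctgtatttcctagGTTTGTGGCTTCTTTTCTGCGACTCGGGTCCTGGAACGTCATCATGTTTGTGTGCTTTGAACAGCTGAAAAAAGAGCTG
Nkx2-5 intron 1, BAT contig: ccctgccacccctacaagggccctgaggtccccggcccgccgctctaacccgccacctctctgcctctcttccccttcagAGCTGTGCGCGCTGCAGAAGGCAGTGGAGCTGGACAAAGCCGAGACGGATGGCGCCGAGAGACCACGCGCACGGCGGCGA
Trdn intron 8, cardiomyocyte contig: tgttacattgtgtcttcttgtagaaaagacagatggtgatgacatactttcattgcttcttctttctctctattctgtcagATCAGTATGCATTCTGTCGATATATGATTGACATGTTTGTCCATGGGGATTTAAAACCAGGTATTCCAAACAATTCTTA
Nexn intron 4, cardiomyocyte contig: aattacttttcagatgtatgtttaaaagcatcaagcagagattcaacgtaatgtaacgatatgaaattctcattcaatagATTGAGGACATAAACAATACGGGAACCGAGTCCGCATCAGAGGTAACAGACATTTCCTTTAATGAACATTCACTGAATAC
In the last one, capitals mark a run of adenines.
Ucp1 intron 5, cardiomyocyte contig: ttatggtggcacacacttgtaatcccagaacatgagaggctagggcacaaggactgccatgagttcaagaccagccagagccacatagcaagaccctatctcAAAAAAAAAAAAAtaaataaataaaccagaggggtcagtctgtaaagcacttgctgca

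The first 5 contigs stopped within 1 nt of the acceptor site, whose AG stands just before the capitals, and 4 of them ran over the whole intron but for 1 nt, which most contigs did not (shares are given further on). Contigs were joined from intronic reads and listed by intron, so an end at the intron boundary does not show where the RNA ended. The stretches lie at chr3:10204491-10204650 for Fabp4, chr8:85821675-85821834 for Ucp1 in BAT, chr17:26976513-26976672 for Nkx2-5, chr10:32919888-32920047 for Trdn and chr3:151912586-151912745 for Nexn. The Fabp4 contig covered 669 of 670 nt of its intron, that of Trdn 4036 of 4037 nt and that of Nexn 3105 of 3106 nt. The exception was Nkx2-5, whose contig began 586 nt into the intron. The Trdn contig also overlapped an annotated exon of another Trdn transcript. The cardiomyocyte contig of Ucp1 intron 5 was different from the BAT one: it covered 396 nt inside the 2507 nt intron and was followed, 22 nt past its end, by an A run of 13 bases, in the stretch at chr8:85820280-85820439.

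Most genes of the cardiomyocyte list were also in the BAT list, but not the reverse. Of 10983 genes in either list, 4778 (43.5%) were listed in BAT only, 763 (6.95%) in cardiomyocytes only and 5442 (49.5%) in both. The shared genes made up 53.2% of BAT genes and 87.7% of cardiomyocyte genes. With the BAT list limited to its 13056 most read introns, 2403 genes were BAT only and 2113 cardiomyocyte only. At the level of introns the lists parted further, since 7835 introns (22.2% of those in either list) were in both, 26.1% of BAT introns and 60.0% of cardiomyocyte introns. These shared introns held 35.6% of BAT reads and 67.3% of cardiomyocyte reads.

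Among the shared genes, 1865 (34.3%) had at least 4 times more RPM in BAT and 1542 (28.3%) at least 4 times more in cardiomyocytes, with a median log2 ratio of BAT over cardiomyocyte RPM of 0.32. This order turned with a read minimum: among the 3230 genes with at least 32 reads in both lists 677 were at least 4 times higher in BAT and 1004 in cardiomyocytes, with a median of -0.47, and at 8 times 32 reads the counts were 237 and 520 of 1776, with a median of -0.71. The same number of reads is a lower RPM in BAT, the list with the larger total. A minimum in reads therefore tilts these ratios toward cardiomyocytes by construction. A gene is called weighted below where its summed RPM differed by 4-fold or more. All lists of genes by function are read against these shares, and against 60.5% of all genes that were BAT only or weighted to BAT and 21.0% that were cardiomyocyte only or weighted to cardiomyocytes. Scaling by the median ratio of the shared introns in place of the totals moves every log2 ratio up by 0.27.

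**Figure D1:**
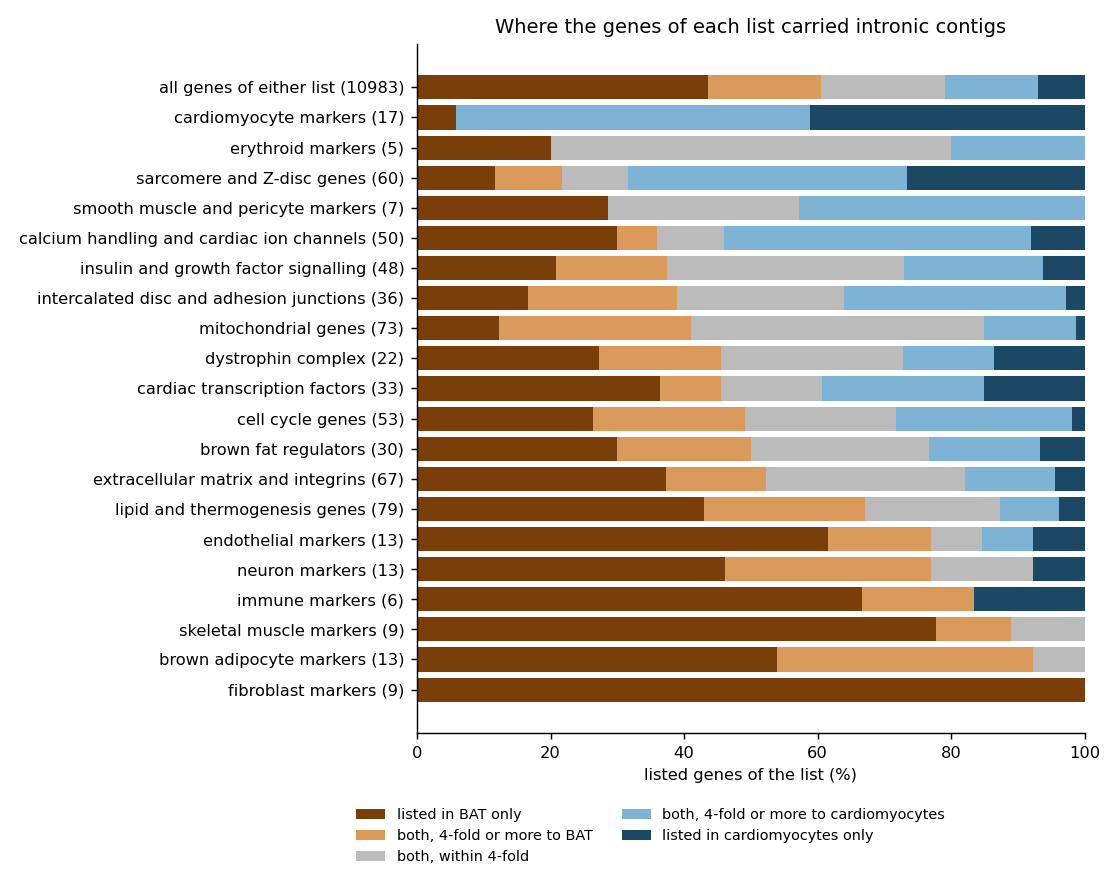
Share of each gene list (number of listed genes in brackets, percent on the horizontal axis) that was listed in BAT only, listed in both and at least 4-fold higher on either side or within 4-fold, or listed in cardiomyocytes only. The sarcomere, calcium handling and cardiomyocyte marker lists are mostly blue, with 16 of 17 cardiomyocyte markers on the cardiomyocyte side, and 12 of 13 brown adipocyte markers lie on the BAT side.

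The label of the BAT cells was checked on 16 marker genes of brown adipocytes, of which 13 were listed. Of these, 7 were in the BAT list only, 5 were in both and weighted to BAT, and 1, Cidea, was within 4-fold. Their summed RPM was 10626 in BAT and 559 in cardiomyocytes. Fabp4, the fatty acid binding protein of adipocytes, had 4417 RPM in BAT from 78875 reads in 3 introns, and was not listed in cardiomyocytes. Pparg, which encodes the nuclear receptor that drives fat cell differentiation, had 2937 RPM from 52450 reads in 4 introns and was likewise BAT only. Both genes drew nearly all of their reads from a single intron: intron 3 gave 90.0% of those of Fabp4, and intron 5, with its longest contig at chr6:115417832-115420267, 95.1% of those of Pparg.

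The other BAT-only markers were Plin1, a coat protein of lipid droplets, at 753 RPM, Dio2, which makes active thyroid hormone, at 173, the transcription factor Ebf2 at 112, the acyl-CoA synthetase Acsl1 at 52.7 and adiponectin (Adipoq) at 2.86. Ucp1, the uncoupling protein that defines the cell type, had 369 RPM in BAT (6596 reads in 5 introns) and 73.7 RPM in cardiomyocytes (899 reads, intron 5 alone), 5.01-fold higher in BAT (log2 ratio 2.33, 95% interval 2.22 to 2.43). The fatty acid transporter Cd36 had 286 against 0.656 RPM, the latter from 8 reads (log2 ratio 8.77, 95% interval 7.79 to 9.98). Prdm16, a determinant of brown fat identity, had 34.7 against 0.492 RPM (log2 ratio 6.14, 95% interval 5.01 to 7.59). The ratio was smaller for lipoprotein lipase, Lpl (249 against 41.2 RPM), and for Pdk4, a kinase that restrains glucose oxidation (1152 against 229.9 RPM). Cidea, a lipid droplet protein of brown fat, went the other way, with 86.7 RPM in BAT and 213 in cardiomyocytes (log2 ratio -1.30, 95% interval -1.39 to -1.21). Cebpa, Elovl3 and Ppargc1a were not listed in either cell type.

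The intron values of 4 fat markers, chosen after their values were seen, were largest in the last or next to last intron. In Ucp1 they went from 0.504 RPM in intron 1 and 0.896 in intron 2 to 18.9 in intron 3, 34.9 in intron 4 and 314 in intron 5, the last of the gene. In Fabp4 they were 246, 196 and 3975 RPM in introns 1, 2 and 3, although the contig of intron 1, of 2315 nt, was longer than that of intron 3. Plin1 had 617 RPM in intron 7 of 8 and 18.5 in the last. In Pparg the last intron, intron 6, had 23.4 RPM, and the leading one stood just before it. Other fat markers differed: Pdk4 had 239 RPM in intron 1, 595 in intron 2 and 72.9 in intron 10, its last, and Cd36 was most read in intron 9 of 15, at 172 RPM.

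Of 22 cardiomyocyte markers, 17 were listed, 7 in cardiomyocytes only and 9 in both and weighted to cardiomyocytes. Their summed RPM was 36697 in cardiomyocytes and 3078 in BAT. The slow myosin heavy chain Myh7 was listed in cardiomyocytes only, at 2016 RPM in 18 introns, as were cardiac troponin T (Tnnt2, 868 RPM), cardiac troponin I (Tnni3, 241), the myosin binding protein Mybpc3 (113), the atrial light chain Myl7 (72.6), troponin C (Tnnc1, 33.2) and Tbx5 (32.9). The ventricular light chain Myl2 had 1070.4 RPM against 0.224 in BAT, where it rested on 4 reads (log2 ratio -12.22, 95% interval -14.10 to -10.87). Cardiac actin, Actc1, had 425 against 0.224 RPM, and Myh6 528 against 0.448.

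One marker ran against its label. Nkx2-5, the homeobox factor of the cardiac lineage, was not listed in cardiomyocytes and had 1501 RPM in BAT, 26804 reads in 1 contig of its only intron at chr17:26976593-26977383 (minus strand, 791 of 1377 nt). No annotated exon overlapped that contig on either strand. Without Nkx2-5 the summed RPM of the cardiomyocyte markers in BAT was 1577. Because libraries were pooled, the number of BAT cells behind these reads is not known. Gata4, Hcn4, Nppa, Nppb and Pln were not listed in either cell type.

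**Figure D2:**
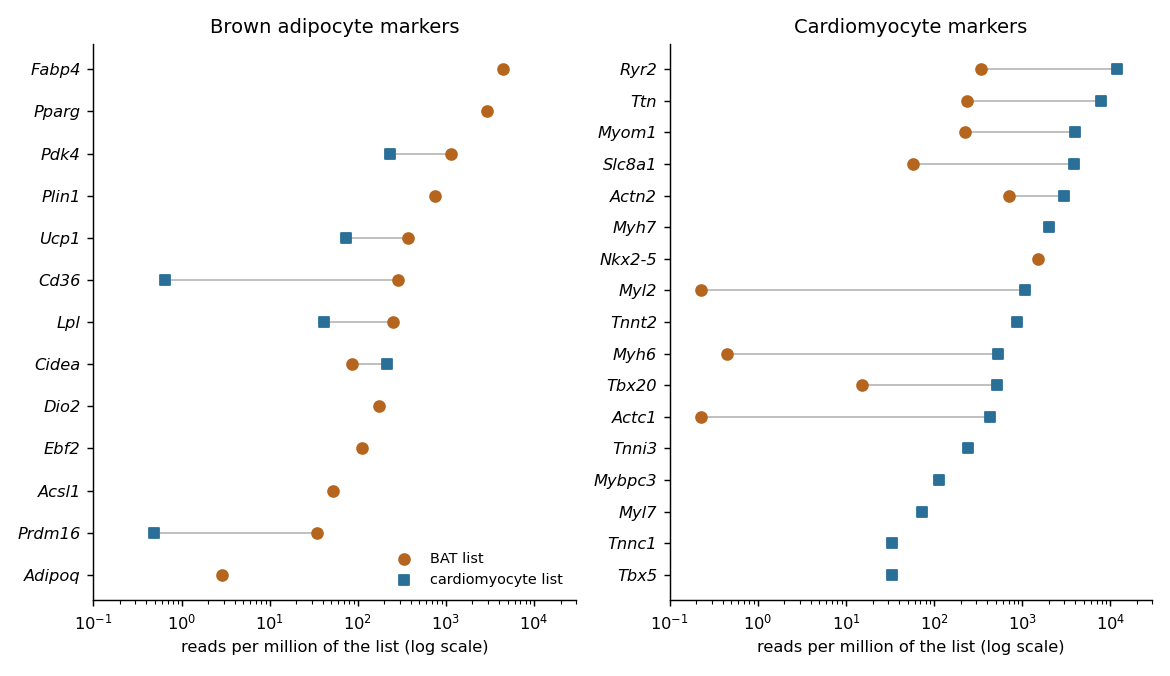
Summed RPM of each listed marker gene in the BAT list (circles) and the cardiomyocyte list (squares), on a log axis, with a line joining the values of genes listed in both and a single symbol for genes listed in one. Among fat markers only Cidea has its square to the right (213 against 86.7 RPM), and among heart markers only Nkx2-5 has a circle alone (1501 RPM).

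Genes of lipid storage, fatty acid oxidation and heat production were 67.1% BAT only or weighted to BAT against 60.5% of all genes and, on the cardiomyocyte side, 12.7% against 21.0%. Of 99 genes, some shared with the marker list, 79 were listed: 34 in BAT only, 3 in cardiomyocytes only and 42 in both, of which 19 were weighted to BAT and 7 to cardiomyocytes. The median log2 ratio of those in both was 1.67, against 0.32 over all shared genes, and the sums were 16427 and 6313 RPM. The fatty acid elongase Elovl6 was BAT only at 1224 RPM. Etfdh, which passes electrons from fatty acid oxidation to the respiratory chain, had 1147 RPM in BAT and 117 in cardiomyocytes (9.80-fold, log2 ratio 3.29, 95% interval 3.21 to 3.37). Hadha, a subunit of the mitochondrial trifunctional protein of beta oxidation, had 714 and 127 RPM (5.63-fold). Acetyl-CoA carboxylase, Acaca, which makes the building block of fatty acids, was higher in BAT within 4-fold, at 1682 and 554 RPM.

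Glycerol kinase, Gyk, which in brown fat lets glycerol re-enter triglyceride, was an exception, with 1611 RPM in cardiomyocytes and 49.4 in BAT (log2 ratio -5.03, 95% interval -5.13 to -4.93). Its cardiomyocyte reads came mostly from intron 18, at chrX:82954302-82955436. Pank1, a kinase of coenzyme A synthesis, and Lipe, hormone-sensitive lipase, were also weighted to cardiomyocytes, at 646 against 3.25 RPM and 538 against 45.4 RPM. Cpt1a, the enzyme that admits fatty acids to mitochondria, had nearly equal sums, 286 RPM in BAT and 259.9 in cardiomyocytes, but from different introns (described further on).

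Mitochondrial genes were mostly shared, as 63 of 73 listed members were in both lists (49.5% of all genes). Of these 21 were weighted to BAT and 10 to cardiomyocytes (over all shared genes 34.3% and 28.3%), with a median log2 ratio of 0.89 and sums of 17307 and 8079 RPM. Ndufs1, a subunit of complex I, had 3553 RPM in BAT and 1.97 (24 reads) in cardiomyocytes, from different introns. Ndufv2, another, had 2215 and 81.0 RPM (log2 ratio 4.77, 95% interval 4.68 to 4.87), and all 5 introns that it shared were higher in BAT. Ogdh, a subunit of the 2-oxoglutarate dehydrogenase of the citric acid cycle, had 1458 RPM in BAT against 2 reads in cardiomyocytes (log2 ratio 13.12, 95% interval 11.27 to 16.16). The beta subunit of ATP synthase, Atp5b, was higher in BAT in all 6 shared introns, at 825 and 293 RPM. Slc25a4, the adenine nucleotide translocator of heart and muscle, was the largest exception by its RPM, with 2712 in cardiomyocytes and 99.8 in BAT (27.2-fold, log2 ratio -4.76, 95% interval -4.83 to -4.70). In both lists its most read intron was intron 3, covered end to end by a contig at chr8:47292975-47293750 that overlaps an annotated exon of the gene itself.

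Regulators of the brown fat program did not lean to BAT as a list. Of 58 genes 30 were listed, 9 in BAT only, 2 in cardiomyocytes only and 19 in both, with 6 weighted to BAT, 5 to cardiomyocytes and a median log2 ratio of -0.29. Creb1, the transcription factor of cAMP signals, was BAT only at 1947 RPM. Ncoa2, a nuclear receptor coactivator, had 1476 RPM in cardiomyocytes and 8.51 in BAT (log2 ratio -7.44, 95% interval -7.68 to -7.21), and its relative Ncoa1 619 and 25.8. Nfib, a nuclear factor I protein, had 1286 and 113 RPM. The corepressor Ncor1 was level, with 308 RPM in BAT and 296 in cardiomyocytes. Genes of insulin and growth factor signalling were also divided, 8 of 35 shared members being weighted to BAT and 10 to cardiomyocytes. Tbc1d4, which controls glucose transporter traffic, had 405 RPM in BAT and 3781 in cardiomyocytes. Cblb, a ubiquitin ligase that attenuates receptor signals, was within 4-fold at 1474 and 3278 RPM.

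Sarcomere and Z-disc genes had the largest share on the cardiomyocyte side among the lists by function. Of 60 listed, 16 were in cardiomyocytes only and 25 were weighted to them, together 68.3% against 21.0% of all genes, while 7 were BAT only and 6 weighted to BAT. The median log2 ratio of BAT over cardiomyocyte RPM was -2.62 and the sums were 58364 RPM in cardiomyocytes and 4549.8 in BAT. Nexn, an actin-binding protein of the Z-disc, had 10777 and 95.6 RPM (113-fold higher in cardiomyocytes, log2 ratio -6.82, 95% interval -6.89 to -6.75). Nebl, nebulette, had 8215 and 759.98 RPM (log2 ratio -3.43, 95% interval -3.46 to -3.41). For titin, Ttn, the molecular spring of the sarcomere, the values were 7914 and 235 RPM (log2 ratio -5.08, 95% interval -5.12 to -5.03). Trim55, a ubiquitin ligase bound to titin, stood at 3716 and 98.7 RPM, the M-band protein Myom1 at 4002 and 224, and alpha-actinin 2, Actn2, which crosslinks thin filaments, at 3012 and 699.

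Calcium handling genes and cardiac ion channels had the lowest median ratio of BAT over cardiomyocytes among the function lists, -3.40 on the log2 scale over 31 shared genes, of which 23 were weighted to cardiomyocytes and 3 to BAT. A further 4 were cardiomyocyte only and 15 BAT only. The L-type channel was represented by its pore subunit Cacna1c, at 2442 RPM in cardiomyocytes and 4.65 in BAT (log2 ratio -9.04, 95% interval -9.37 to -8.73), and by its auxiliary subunits Cacnb2, at 10032 and 121 (log2 ratio -6.38, 95% interval -6.44 to -6.32), and Cacna2d1, at 2690.3 and 645. The ryanodine receptor Ryr2, which releases calcium from the sarcoplasmic reticulum, had 11985 and 345 RPM (log2 ratio -5.12, 95% interval -5.16 to -5.08). Triadin, Trdn, which holds calsequestrin at the ryanodine receptor, had 13009.8 and 876 RPM. The sodium-calcium exchanger Slc8a1, which extrudes calcium, had 3864 and 58.3 RPM, and the kinase Camk2d 4276 and 912. Members on the BAT side included Abcc9, a subunit of the ATP-sensitive potassium channel, at 499.5 RPM in BAT against 2 reads in cardiomyocytes (log2 ratio 11.57, 95% interval 9.72 to 14.62), and the BAT-only genes Ank2, an adaptor of membrane transporters, at 1105 RPM and Camk2g at 329.

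The weight of a gene did not extend evenly to all of its introns. In Ttn, all 15 introns in both lists were higher in cardiomyocytes, 12 of them by 4-fold or more. The closest had a log2 ratio of -0.10, which scaling by the median ratio, a shift of 0.27, would turn to the BAT side. In Nexn the 5 shared introns had log2 ratios from -10.84 to -2.65, and its most read intron, intron 4, was listed in cardiomyocytes only. In Magi3, a scaffold of cell junctions, the 5 shared introns ranged from -11.04 to -3.91. In Dmd, by contrast, 14 shared introns were higher in cardiomyocytes and 5 in BAT, with log2 ratios from -10.03 to 7.25. Ryr2 had 47 introns in the cardiomyocyte list and 18 in the BAT list, but of the 12 in common 4 were higher in BAT. Trdn shared 7 introns and was higher in cardiomyocytes in 6, the other being intron 7, the most read one in BAT at 777 RPM.

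Over the 203 genes with 5 or more shared introns, 21 had every intron on the same side, 10 on the BAT side and 11 on the cardiomyocyte side. The median SD of the log2 ratio among the introns of such a gene was 3.45, and the SD over all their 1275 introns was 4.08. Introns of 1 gene come from the same cells and are not replicates.

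**Figure D3:**
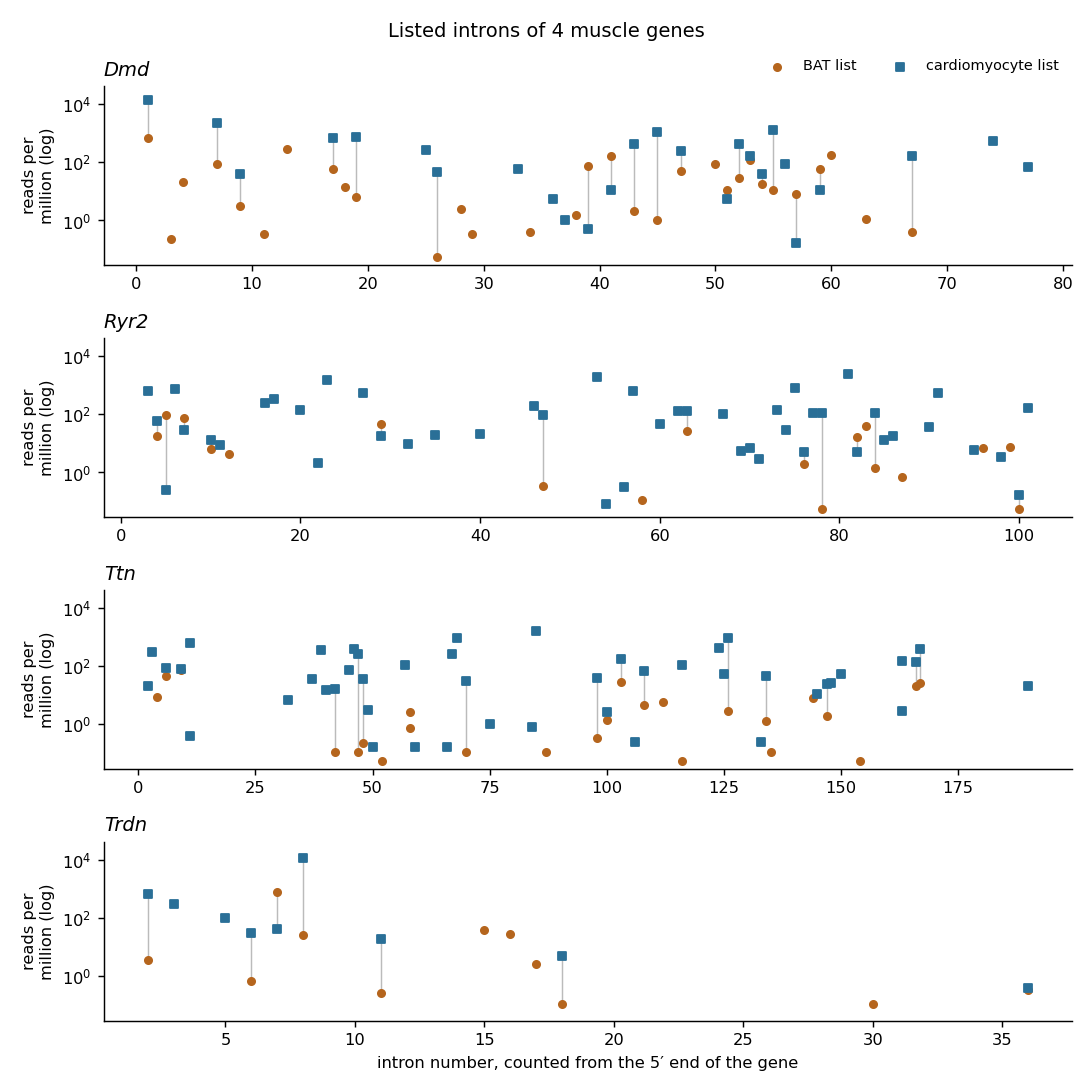
RPM (log axis) of each listed intron of dystrophin, the ryanodine receptor, titin and triadin against its intron number, for the BAT list (circles) and the cardiomyocyte list (squares), all listed transcripts of a gene together and lines joining introns in both lists. In Ttn every joined square is above its circle, whereas 5 of 19 joined pairs in Dmd and 4 of 12 in Ryr2 are the other way up.

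Large introns of these genes held many separate contigs. Intron 2 of Cacnb2, 260413 nt long, had 38 contigs in cardiomyocytes that covered 10.9% of it and 16 in BAT that covered 2.66%. Some of these contigs overlapped annotated exons of Cacnb2 itself or of the predicted genes Gm13268, Gm13312 and Gm13314. Intron 1 of Dmd was covered to 18.1% by 33 cardiomyocyte contigs and to 7.08% by 26 BAT contigs, at 13439.8 and 694 RPM. In Nebl the leading introns differed, intron 4 with 23 contigs in cardiomyocytes, 18 of which overlapped exons of other Nebl transcripts, and intron 2 with 12 in BAT. In Ryr2 the leading cardiomyocyte intron was short: a single contig at chr13:11713662-11715167 covered 99.9% of Ryr2 intron 81 and held 2415 RPM in cardiomyocytes.

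The dystrophin complex, which ties the cytoskeleton to the matrix, was split between the cell types. Dystrophin itself, Dmd, had 22010.2 RPM in cardiomyocytes and 1979 in BAT (11.1-fold, log2 ratio -3.48, 95% interval -3.49 to -3.46), with 61.1% of the cardiomyocyte reads in intron 1, an intron of 187480 nt with 33 contigs. Its homologue utrophin, Utrn, which replaces dystrophin in many other tissues, was weighted to BAT at 1011 against 235 RPM (log2 ratio 2.10, 95% interval 2.05 to 2.16). Sntg1, a syntrophin, had 1514 and 25.6 RPM, and dysferlin, Dysf, a membrane repair protein, 418 and 29.3. Large, the glycosyltransferase of dystroglycan, had 345 RPM in BAT and 1967 in cardiomyocytes, while Sgce, a sarcoglycan, was within 4-fold at 1605 and 1366. Laminin chains of the basement membrane that anchors the complex were also within 4-fold, Lama2 at 1185 and 436 RPM and Lama4 at 517 and 1543. Of 22 listed members, 6 were BAT only, 3 cardiomyocyte only, and of 13 in both 4 were weighted to BAT and 3 to cardiomyocytes.

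Among genes of the intercalated disc and of cell adhesion, 12 of 29 shared members were weighted to cardiomyocytes and 8 to BAT, with a median log2 ratio of -1.62. N-cadherin, Cdh2, which joins cardiomyocytes, had 4172 RPM in cardiomyocytes and 431 in BAT (log2 ratio -3.28, 95% interval -3.31 to -3.24), desmoglein 2, Dsg2, 1365 and 19.7, the receptor phosphatase Ptprk 4570.2 and 516, and Magi3 4843 and 28.4. The alpha catenins, which link cadherins to actin, behaved differently from each other. Ctnna2, the neural form, had 1906 RPM in BAT and 4.02 in cardiomyocytes (log2 ratio 8.89, 95% interval 8.49 to 9.33), Ctnna1 had 2279 and 3698, and Ctnna3, the form of the cardiac intercalated disc, had 6043 and 7991. The reads of Ctnna3 lay in different places. Intron 2 gave 84.3% of them in BAT. In cardiomyocytes intron 6 was the most read one with 26.0% (25347 reads), nearly level with intron 1 of another transcript (25339 reads).

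Of 67 listed genes of the extracellular matrix and its integrins, 25 were BAT only and 3 cardiomyocyte only, and of 39 in both 10 were weighted to BAT and 9 to cardiomyocytes. Fibrillin 2, Fbn2, a microfibril protein of the embryo, had 3823 RPM in cardiomyocytes and 23.4 in BAT (log2 ratio -7.36, 95% interval -7.50 to -7.22), and versican, Vcan, 1613 and 18.1. The metalloprotease Adamts6 was within 4-fold in sum (564 and 1739 RPM). Nidogen, Nid1, of basement membranes, was BAT only at 969.6 RPM.

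Cardiac transcription factors were divided, with 12 of 33 listed in BAT only, 5 in cardiomyocytes only and, of 16 in both, 8 weighted to cardiomyocytes and 3 to BAT. Several factors that act in heart muscle had higher values in cardiomyocytes. Myocd, a coactivator of serum response factor, was cardiomyocyte only at 1043 RPM. Gata6 had 1459 RPM in cardiomyocytes and 22.1 in BAT (log2 ratio -6.05, 95% interval -6.19 to -5.90), Tbx20 521 and 15.2, Mef2a 1789 and 254 and Mef2c 671 and 102. On the BAT side, together with Nkx2-5, was Jarid2, a partner of polycomb repressive complex 2, at 1642 RPM in BAT and 339.9 in cardiomyocytes. Cell cycle genes, of interest because the cardiomyocytes carried a cell cycle reporter and were sorted on fluorescence, were weighted 12 to BAT and 14 to cardiomyocytes among 38 shared members (median log2 ratio 0.10), and a further 14 were BAT only and 1 cardiomyocyte only, with sums of 4952 and 3863 RPM. With ratios scaled by their median over shared introns the split turned to 15 and 11. The condensin subunit Ncapg had 2204 RPM in BAT and 1005 in cardiomyocytes, the DNA polymerase subunit Pola1 662 and 125, and Brca1, of DNA repair, 17.4 and 737.

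Markers of other cell types were read against the 43.5% of all genes that were BAT only and the 10220 of 10983 that the BAT list held. Fibroblast markers were listed for 9 of 14 genes, all BAT only and led by Postn (87.2 RPM), and summed to 168 RPM. Skeletal muscle markers (9 of 17 listed, 7 BAT only) summed to 376 RPM in BAT and 7.54 in cardiomyocytes, led by the perinatal myosin Myh8 (177 against 0.328 RPM), while the defining factors Myod1, Myf5 and Myog were not listed. Neuron markers (13 of 16) summed to 3095 and 576 RPM and were led by Csmd1, which was BAT only (731 RPM). Endothelial markers (13 of 16) summed to 1016 and 462, led by Ptprb in BAT (462 RPM) and by Tek in cardiomyocytes (287 RPM), and immune markers (6 of 15) to 293 and 0.738, led by Ptprc (131 RPM, BAT only). Higher sums in cardiomyocytes were seen for smooth muscle and pericyte markers (7 of 10), at 166 in BAT and 673 in cardiomyocytes, led by desmin, Des, which heart muscle also uses, and for erythroid markers (5 of 9), at 181 and 808, nearly all from Epb4.1 (775 RPM). The BAT list was also the longer one, and the part of other cells in the BAT and cardiomyocyte values was not tested.

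The introns with the largest share of reads among genes listed in one cell type only are given next. These values are not set against intron length and are not levels of the genes. In BAT they were led by intron 1 of Tmem170b (5319.6 RPM in 4 contigs) and intron 10 of Ezh1 (4137 RPM), a histone methyltransferase of polycomb repressive complex 2. Fabp4 intron 3 and Pparg intron 5 were the ones with a known fat cell role. The others were in Pacsin1 (3185 RPM), an endocytic protein of neurons, the matrix protein Matn2 (2813), the adhesion molecule Cadm2 (2661), the nucleotide sugar transporter Slc35d1 (2559), the ciliary GTPase Arl6 (2497) and the splicing factor Isy1 (2473). Of these 10 introns, those of Slc35d1 and Arl6 had a contig that overlapped an annotated exon of the same gene.

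In cardiomyocytes the same rule gave several muscle genes. Myh7 intron 26 had 1902 RPM (longest contig at chr14:55599417-55601001, overlapping an annotated Myh7 exon), Tnni1 intron 5 882 RPM (troponin I of slow muscle and the fetal heart) and Myocd intron 5 908 RPM. Gem, a small GTPase that inhibits voltage-gated calcium channels, had 1600.4 RPM in intron 2, and Ppp1r3c, a glycogen-targeting subunit of protein phosphatase 1, 1613 RPM in its only intron. The others were Adamts19 (3534 RPM), Ccdc141 (1925), A930001N09Rik (1606), the BMP signal transducer Smad5 (914) and Ccdc63 intron 9 (905). Contigs in Ccdc141 and Smad5 also overlapped an exon of the same gene. One of the 2 contigs in Ccdc63 lay over an annotated exon of the ventricular light chain Myl2 on the opposite strand. The libraries were not strand specific, so reads of Ccdc63 and Myl2 cannot be told apart there.

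Introns that both cell types listed differed widely in weight. Of 7835 shared introns, 2101 (26.8%) were weighted to BAT and 2563 (32.7%) to cardiomyocytes, with a median log2 ratio of -0.27 and an SD of 4.26. With the BAT list limited as above, 1803 were weighted to BAT and 921 to cardiomyocytes, but that limit by construction drops shared introns with few BAT reads. Among the 1170 with at least 8 times 32 reads in both lists, 102 and 355 were weighted to BAT and to cardiomyocytes, and the SD was 2.16. As for genes, a minimum in reads tilts this split toward cardiomyocytes. Pearson's r of log10 RPM over the shared introns was 0.247, a description across introns of 2 pooled lists.

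**Figure D4:**
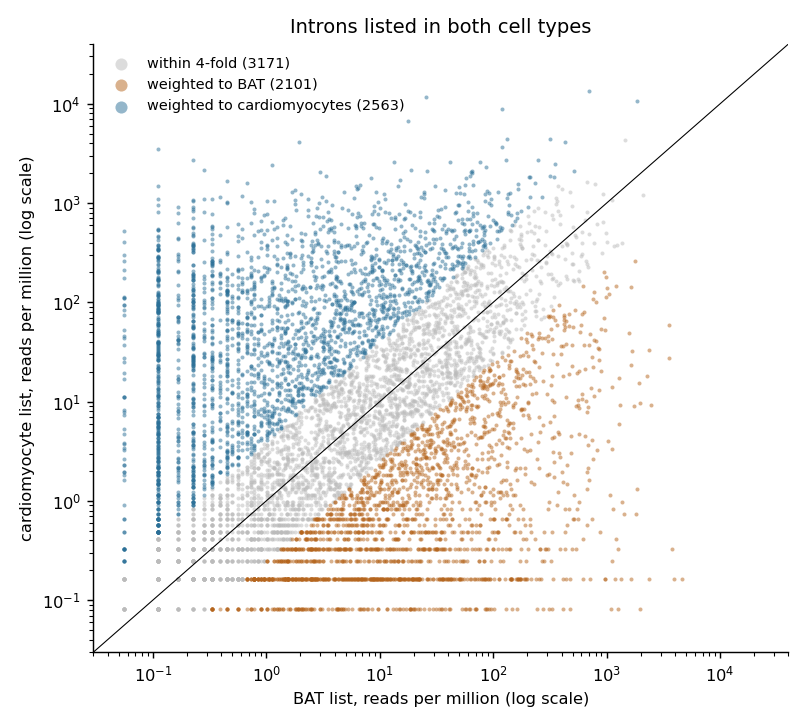
RPM of the 7835 introns listed in both cell types, BAT on the horizontal and cardiomyocytes on the vertical log axis, 1 point per intron, with the line of equal values. The 2101 introns weighted to BAT and 2563 weighted to cardiomyocytes spread far from the line, and the bands at low values are introns with 1 to a few reads in one list.

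The 10 largest ratios in each direction, among introns with at least 8 times 32 reads in the higher list, all stood against 1 to 5 reads in the other list. Cdo1 intron 3, in the gene of cysteine dioxygenase, had 82390 and 2 reads in BAT and cardiomyocytes (log2 ratio 14.78, 95% interval 12.93 to 17.83). Kdm6a intron 7, in the gene of a histone H3K27 demethylase on the X chromosome, had 69619 and 2 reads (log2 ratio 14.54, 95% interval 12.68 to 17.58), and Mettl9 intron 3 had 67352 and 4 reads. The others on that side were in Caprin2, Gab3, Prom1, Gpr158, Bbx, 1700023E05Rik and Aff4, a scaffold of the super elongation complex, with log2 ratios from 12.82 to 14.55.

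Toward cardiomyocytes the same rule gave 2 genes with a known role in heart muscle. Popdc2, a cAMP-binding membrane protein of the heart, had 2 and 18054 reads in intron 2 in BAT and cardiomyocytes (log2 ratio -13.69, 95% interval -16.74 to -11.84). Rbm24, a splicing regulator of striated muscle, had 1 and 6363 reads in intron 3 (log2 ratio -13.19, 95% interval -18.49 to -10.71). Tsr1 intron 8, in the gene of a ribosome assembly factor, had 2 and 42277 reads (log2 ratio -14.92, 95% interval -17.96 to -13.06), and Mms22l intron 5, in a gene of replication-coupled DNA repair, 4 and 32978 reads. The others were in Rfpl3s, Adamts6, Phf20l1, Sumf1, the phosphatase gene Dusp16 and Mcc, with log2 ratios from -13.25 to -12.40.

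Some genes were listed in both cell types through entirely different introns. This was so for 1101 (20.2%) of the 5442 shared genes, of which 335 had 1 intron in each list and 163 had at least 8 times 32 reads in each. Of 928 shared genes with 1 intron in each list, the intron differed in 36.1%. In 7 of the 1101 genes the lists used different transcripts of the same annotated intron, and 6 had contigs that overlapped in position.

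Telo2, a cochaperone of PI3K-related kinases, was read in intron 2 alone in BAT (4383 reads, 245 RPM) and in intron 20 alone in cardiomyocytes (3609 reads, 296 RPM). In Cpt1a, intron 3 held 5100 of 5116 BAT reads and intron 2 held 3169 of 3171 cardiomyocyte reads, in contigs of which the longest lay at chr19:3354230-3354850 in BAT and chr19:3351297-3351873 in cardiomyocytes. These are neighbouring introns of the same transcript. Stat5b, a transcription factor of cytokine and growth hormone signals, gave 1430.1 RPM in intron 11 in BAT and 266 RPM in intron 5 in cardiomyocytes.

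The cleavage and polyadenylation factor Fip1l1 gave 2684 RPM in intron 9 in BAT and 606 in intron 12 of another transcript in cardiomyocytes. Intu, which acts in cilium formation, gave 253 RPM in intron 3 in BAT and 882 in intron 14 in cardiomyocytes. Sfmbt1, a polycomb-related protein, had 6 introns in BAT and 2 in cardiomyocytes, and talin 2, Tln2, which couples integrins to actin, 8 and 9, none in common. Rbms3, an RNA-binding protein, was 1 of the 7 exceptions: its lists named different transcripts, but intron 6 of both is the same annotated intron, and so are intron 11 of the BAT transcript and intron 12 of the cardiomyocyte transcript, whose contigs overlapped. Mlh3, a mismatch repair gene, was listed in BAT alone, with 455 reads in intron 8.

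Contigs of a shared intron often lay at the same place in both cell types. Of 7835 shared introns, 5118 (65.3%, 95% Wilson interval 64.3 to 66.4) had contigs that overlapped by at least 1 nt. The share was 72.8% for introns within 4-fold, 61.0% for those weighted to BAT and 59.6% for those weighted to cardiomyocytes. It fell with intron length, from 96.9% in introns under 1000 nt to 39.1% in introns of 10000 to 30000 nt. In longer introns than that it was 39.3% and 48.1%.

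**Figure D5:**
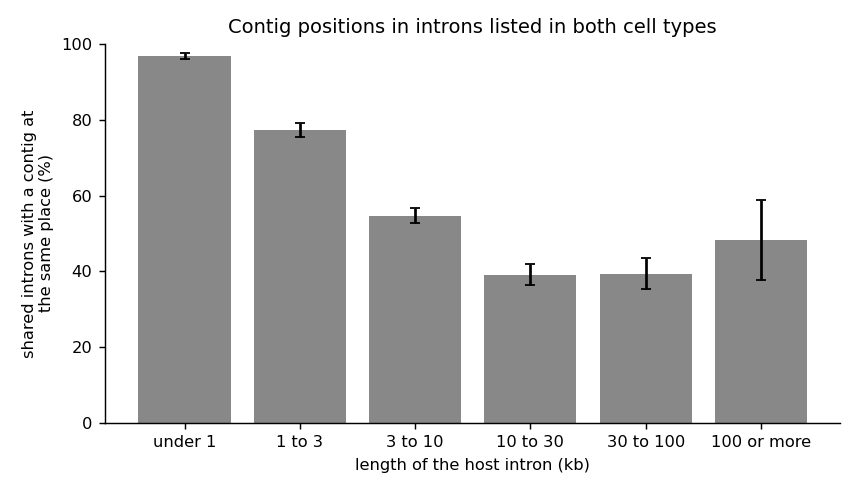
Percent of introns listed in both cell types that had overlapping BAT and cardiomyocyte contigs, by length of the annotated intron in kilobases, with 95% Wilson intervals of counting error as bars. The share is 96.9% in the shortest class and 39.1% in introns of 10 to 30 kb.

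Shared introns were longer, with a median of 3518 nt, than those listed in BAT only (2558 nt) or cardiomyocytes only (2159.5 nt), and both weighted groups were longer than the group within 4-fold (4484, 4121 and 2598 nt). A contig reached the 3′ end of its intron, to within 5 nt, in 19.3% of BAT and 22.5% of cardiomyocyte contigs, and spanned the intron from end to end in 7.92% and 8.35%. Such spanning contigs were more frequent among introns within 4-fold (15.0% in BAT) than among introns weighted to BAT (8.80%) or to cardiomyocytes (4.56%). An annotated exon on the same strand overlapped 6.79% of BAT and 10.1% of cardiomyocyte contigs.

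An adenine run of 10 or more lay within 300 nt downstream of 7.36% of BAT and 9.53% of cardiomyocyte contigs, against 2.56% and 2.40% within the same distance upstream. Such runs can prime an oligo-dT reaction. The downstream share was 6.85% for contigs of BAT-only introns and 9.32% for those of cardiomyocyte-only introns, close to that of each whole list. For introns weighted to BAT it was 6.88% of BAT contigs and 11.9% of cardiomyocyte contigs, and for introns weighted to cardiomyocytes 10.9% and 8.94%. Runs inside the contigs were instead found in 11.6% and 7.97% of contigs for introns weighted to BAT and in 9.92% and 25.2% for introns weighted to cardiomyocytes. Over each whole list, contigs with such an inner run made up 8.41% in BAT and 15.2% in cardiomyocytes. Contig length differed as well, with medians of 174 nt and 456 nt in the cardiomyocyte list for introns weighted to BAT and to cardiomyocytes. The part of these runs in the listing of an intron was not tested.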

How the data were processed

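RNA of the cells was amplified and sequenced as paired-end libraries. According to the methods of the study, reads were trimmed of adapter, poly-A and poly-T and aligned with RUM, and the submitters' processing notes name the builds mm9 and rn4. Intronic reads that Bowtie placed uniquely were kept, introns with predicted genes, polyadenylation sites or known structured RNAs were removed, and neighbouring reads, which need not overlap, were joined into contigs. Whole cells include the nucleus, and for them the study kept contigs of at most 400 nt to lessen the part of nuclear RNA. The deposited lists also hold longer contigs, and all were used here. The authors deposited read counts per intron and contig lengths for each cell type, with libraries pooled. Which libraries entered each list is not given in the sources used here. Intron counts were taken once per transcript and intron and scaled to the list total. Ratios carry exact Clopper-Pearson intervals and position shares Wilson intervals, at 95%. Contigs were placed in the NCBIM37 annotation of GENCODE M1, where 35166 of 35239 introns matched. Python 3.11.15, pandas 2.3.3, NumPy 2.4.6, SciPy 1.17.1 and Matplotlib 3.10.9 were used, and the counting was tested on simulated data.

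The members and gene lists were chosen with earlier results of these data known. Named were, in each list, the 10 most read introns of genes listed in that cell type only, the 10 largest ratios in each direction with 8 times 32 or more reads in the higher list, the 8 genes with the most reads in both but no common intron plus Mlh3, and in each gene list the members with the highest RPM, up to 6 for fat and heart lists and 3 for others, with the markers. Abcc9, Ank2, Atp5b, Cacna1c, Camk2g, Cdh2, Ctnna1, Ctnna2, Dsg2, Dysf, Hadha, Lipe, Mef2c, Nid1, Ogdh, Pank1 and Utrn were named after their values were seen. Some genes that the rule names are not reported here. Alternatives limited contig length or reads per intron, cut the BAT list to the length of the other, and changed the scaling, the ratio or the matching of introns.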

Additional observations from a re-analysis of the deposited data

How the results depend on the processing

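The counts changed with the depth asked of an intron. With only contigs up to 400 nt kept, as the study did for whole cells, 4071 introns were in both lists, 1160 of them weighted to BAT and 1189 to cardiomyocytes. With at least 32 reads per intron, 3070 genes and 3231 introns were in both, 501 weighted to BAT and 1074 to cardiomyocytes. At 8 times 32 reads, 2522 genes were BAT only, 1582 were in both, 627 of these with no shared intron, and of 1170 introns in both 102 were weighted to BAT and 350 to cardiomyocytes. With the BAT list cut to the length of the cardiomyocyte list, 2403 genes were BAT only and 2113 cardiomyocyte only, and 4491 introns were in both, 1803 weighted to BAT and 921 to cardiomyocytes. That cut drops introns with few BAT reads by construction, so the turned order of the 2 counts says nothing of the cell types. Minimums applied to both lists kept the order. They were set in reads, though, and the same number of reads is a lower RPM in BAT, which by construction favours the cardiomyocyte count. In these alternatives reads were rescaled to the totals of the introns kept, which accounts for 350 in place of the 355 counted under the full totals. A ratio of 16 or more left 1041 and 1496 shared introns. Matching introns by annotated position, an alternative chosen after seeing the data, gave 7850 shared introns and 1094 genes without one. Scaling by the median ratio moved all log2 ratios by 0.27 and the BAT share of weighted introns from 45.0% to 49.0%, and brought 1 shared erythroid marker to 4-fold or more in BAT, where 0 had been. Of the 400 values of named genes and introns, that scaling took 12 out of the 4-fold call and 10 into it. The scaling without the 20 most read introns, which moved log2 ratios by -0.037, took 0 out and 1 in. Both shifts are far below the log2 limit of 2, so no weighted value could change direction, whereas nearly level values could. With scaling by the median ratio, shared genes weighted to cardiomyocytes went from 9 to 8 among cardiomyocyte markers, from 23 to 21 among calcium genes and from 25 to 23 among sarcomere genes. No paired analysis was possible because each list pools its libraries, and for the same reason no library could be left out. The depth of single libraries is not known, and introns were also removed by the study's filters, so an intron missing from a list is not shown to be absent from the cells.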

Other observations

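Neuron markers in the BAT list were spread over several genes. Beside Csmd1, Gria4, a glutamate receptor subunit, had 464 RPM in 8 introns in BAT and 2 reads in cardiomyocytes (log2 ratio 11.47, 95% interval 9.62 to 14.51), Syt1, the calcium sensor of synaptic vesicles, was BAT only at 455 RPM in 3 introns, while Dlg2, a postsynaptic scaffold, was level at 573 and 554 RPM. The embryonic myosin Myh3 (67.0 RPM) and the skeletal ryanodine receptor Ryr1 (59.2) were BAT only, as were the endothelial gene Emcn (225) and the collagen receptor Ddr2 (39.5). Immune markers in BAT were led by Ptprc and by Cybb, of the phagocyte oxidase (122 RPM) and Itgam (28.4), and Klf1, the erythroid transcription factor, was BAT only at 43.0 RPM. In cardiomyocytes the endothelial gene Vwf had 174 RPM against 4 reads in BAT. Desmin, Des, had 287 RPM in cardiomyocytes and 4.31 in BAT, the pericyte proteoglycan Cspg4 269.9 and 113, Mcam 108 and 22.4, and Alas2, of erythroid heme synthesis, 24.3 and 6.83. The genes of this paragraph were named by their RPM within each marker list, except Vwf, which was named after its value was seen, and the source of their reads was not tested.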
